A study of Rattus norvegicus with 72 samples.

Results

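Oxidative phosphorylation subunits were the probes of the deposited matrix whose gene symbol names a nuclear-encoded subunit of respiratory complex I (Nduf), II (Sdh), III (Uqcr), IV (Cox4 to Cox8) or of ATP synthase, complex V (Atp5). The symbols selected 37 genes, measured by 52 of the 41012 distinct gene probes on the array, and no measured value entered the choice. Complex I had 11 probes, complex II 3, complex III 3, complex IV 17 and complex V 18. All 52 passed the filter on dim probes. Symbols were updated through RefSeq, so that the file's Cox8h is given as Cox8b, Cox7a3 as Cox7a2, Atp5f1 as Atp5pb and Atp5i as Atp5me. A selected probe, Atp5s, now belongs to Dmac2l, which is not a subunit of ATP synthase, and it was kept in all counts.

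RNA came from the medial collateral ligament, a band on the medial face of the knee joint, in adult male Sprague-Dawley rats, and was hybridised to Agilent rat arrays. Ligaments had been severed, or left intact in a bilateral sham operation under the same anaesthesia and analgesia, and were taken on days 1, 2, 4, 7, 10 and 14, with 5 columns a group and day, except 3 on day 7. The 3 sham columns of day 7 differed by an SD of 0.21 to 0.32 in log2 intensity of bright spots, less than any other pair of ligament columns of 1 group on separate arrays (0.41 or more), so whether they are 3 separate samples is in doubt. Further columns held fibroblasts released from 8 ligaments with collagenase and grown in culture to passages 3 to 7 (5 columns). Others held 5 ligaments of rats that were not manipulated, and a universal rat reference RNA labelled with Cy5 in 3 columns and with Cy3 in 3. The names of the fibroblast columns do not give the passage, so columns were not assigned to passages, and successive passages of a culture share their cells.

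The 72 columns lay on 43 arrays, 29 of which carried 2 columns in different dyes. Column median intensity ranged from 8 to 13062. Stretches of spots that did not correlate with the other columns of their kind were set to missing, which removed 5.69% of the stretches in 10 columns and the whole of severed day 7 replicate 2. Severed day 2 replicate 2, severed day 4 replicates 1 and 4, sham day 4 replicate 1, replicate 1 of both day 14 groups and fibroblast replicate 1 correlated poorly with their kind over most of the array. Per the file headers, severed ligament carried Cy3 for days 1 and 4 but Cy5 for days 2, 7, 10 and 14, and sham ligament carried the other dye, so operation and dye cannot be told apart within a day except through a dye term estimated from the reference RNA. The reference columns reached maxima of 74789 to 82797 in Cy5 and 51638 to 57115 in Cy3, whereas no other column exceeded 65456, so the 2 dyes of the reference are not on the scanner's common scale. The labels give the opposite dyes for day 2. Levels are log2 quantile-normalised intensity, and differences are log2 differences with their standard error (SE) from limma, called at an adjusted p under 0.05. Of 11 probes for 9 ligament fibroblast markers, 3 were above the negative controls in all 5 fibroblast columns and 8 in all 5 unmanipulated ligaments. Fibroblast replicate 1 had 10.7% of all spots above the controls, against 53.5% to 66.4% in the other fibroblast columns, which limits the first count. Comp, Fmod, Tnmd and Thbs4, examples from this list, fell in the cultures. These values describe the columns and do not test their labels.

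Oxidative phosphorylation makes most of a resting cell's ATP. Complexes I and II pass electrons from NADH and succinate to ubiquinone, complex III hands them to cytochrome c, complex IV reduces oxygen, and the proton gradient built on the way drives ATP synthase. Ligament is a collagen-rich tissue with few cells and few mitochondria, whereas the skeletal muscle beside the knee is rich in both. Complex IV carries tissue isoforms: Cox6a2 and Cox8b are the forms of muscle and heart, and Cox6a1 and Cox8a are expressed widely. In bulk tissue, fewer cells of a type and less RNA per cell cannot be told apart.

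Promoters of 4 genes are shown because the results turn on them: the muscle isoforms Cox8b and Cox6a2, the widely expressed Cox8a, and Atp5me, the brightest member in ligament. Each is the stretch from 250 bases before to 50 after the transcription start on the gene's strand, taken from RefSeq (rat build GRCr8). Capitals mark E-boxes (CANNTG) and MEF2 motifs in Cox8b (chr1:205408224-205408523, minus strand) and Cox6a2 (chr1:192219667-192219966, minus strand), ETS motifs (CCGGAAG) and YY1 motifs (GCCAT, any base, TT) in Cox8a (chr1:213833574-213833873, minus strand), and NRF1 (GCGCA followed by TGCGC) and ETS motifs in Atp5me (chr14:1464610-1464909, plus strand), each searched on both strands.
Cox8b: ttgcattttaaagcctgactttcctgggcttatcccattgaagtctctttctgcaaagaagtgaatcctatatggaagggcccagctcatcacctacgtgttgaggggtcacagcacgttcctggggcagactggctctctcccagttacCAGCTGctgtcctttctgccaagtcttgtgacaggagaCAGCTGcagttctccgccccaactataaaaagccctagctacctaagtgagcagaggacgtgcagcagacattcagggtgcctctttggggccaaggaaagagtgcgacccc
Cox6a2: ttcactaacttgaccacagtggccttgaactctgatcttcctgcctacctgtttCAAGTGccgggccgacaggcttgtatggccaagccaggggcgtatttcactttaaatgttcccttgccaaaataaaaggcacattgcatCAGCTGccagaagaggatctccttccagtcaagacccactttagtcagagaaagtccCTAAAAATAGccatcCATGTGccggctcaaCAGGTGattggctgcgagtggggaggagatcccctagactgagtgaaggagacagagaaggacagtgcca
Cox8a: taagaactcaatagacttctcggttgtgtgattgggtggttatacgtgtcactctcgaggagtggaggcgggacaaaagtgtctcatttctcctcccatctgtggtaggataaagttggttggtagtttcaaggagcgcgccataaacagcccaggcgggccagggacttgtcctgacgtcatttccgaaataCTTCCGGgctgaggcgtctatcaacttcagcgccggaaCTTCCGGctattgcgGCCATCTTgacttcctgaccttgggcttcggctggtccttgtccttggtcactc
Atp5me: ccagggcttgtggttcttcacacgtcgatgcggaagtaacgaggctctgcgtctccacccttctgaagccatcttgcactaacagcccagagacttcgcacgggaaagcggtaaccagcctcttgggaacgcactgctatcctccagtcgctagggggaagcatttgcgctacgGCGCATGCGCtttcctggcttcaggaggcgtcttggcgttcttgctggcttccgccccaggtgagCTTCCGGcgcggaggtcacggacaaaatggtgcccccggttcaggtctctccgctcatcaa
RefSeq held such a window for 33 of the 37 genes. An ETS motif lay in 9 of the 33 (27.3%) and in 8.8% of 33365 distinct promoter windows of the rat table, and a YY1 motif in 13 (39.4%) and in 7.0%. NRF1 matched in Atp5mc2, Atp5me and Atp5po, which is 9.1% of the members and compares with 0.9% of all windows. An ERR motif (AAGGTCA) lay in 6 (18.2%) and in 4.6%. E-boxes lay in 66.7% of the members and in 72.1% of all windows, and the MEF2 motif matched among the members only in Cox6a2, against 3.3% of all windows. A match is a string of letters and not a bound site.

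Probes of 1 family differed widely in level. In ligament, 29 of the 52 probes were above the negative controls in at least 90% of the columns that measured them, and 7 were so in under 50%. The brightest complex I probes were Ndufa5, an accessory subunit, at a mean of 13.90 over the ligament columns, and Ndufv2, a core subunit of the NADH-oxidising arm, at 13.32. In complex II the catalytic flavoprotein Sdha averaged 13.06 and the membrane anchor Sdhd 12.88. The Rieske iron-sulphur protein Uqcrfs1 averaged 11.34 and the core protein Uqcrc1 7.93 in complex III. Cox6c averaged 14.71 and Cox6a1 14.00 in complex IV, and the small ATP synthase subunits Atp5me and Atp5f1e averaged 15.21 and 14.72. These values order probes and not transcripts: all 12 genes with several probes had probes over 3 log2 units apart (3.24 to 7.53).

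**Figure D1:**
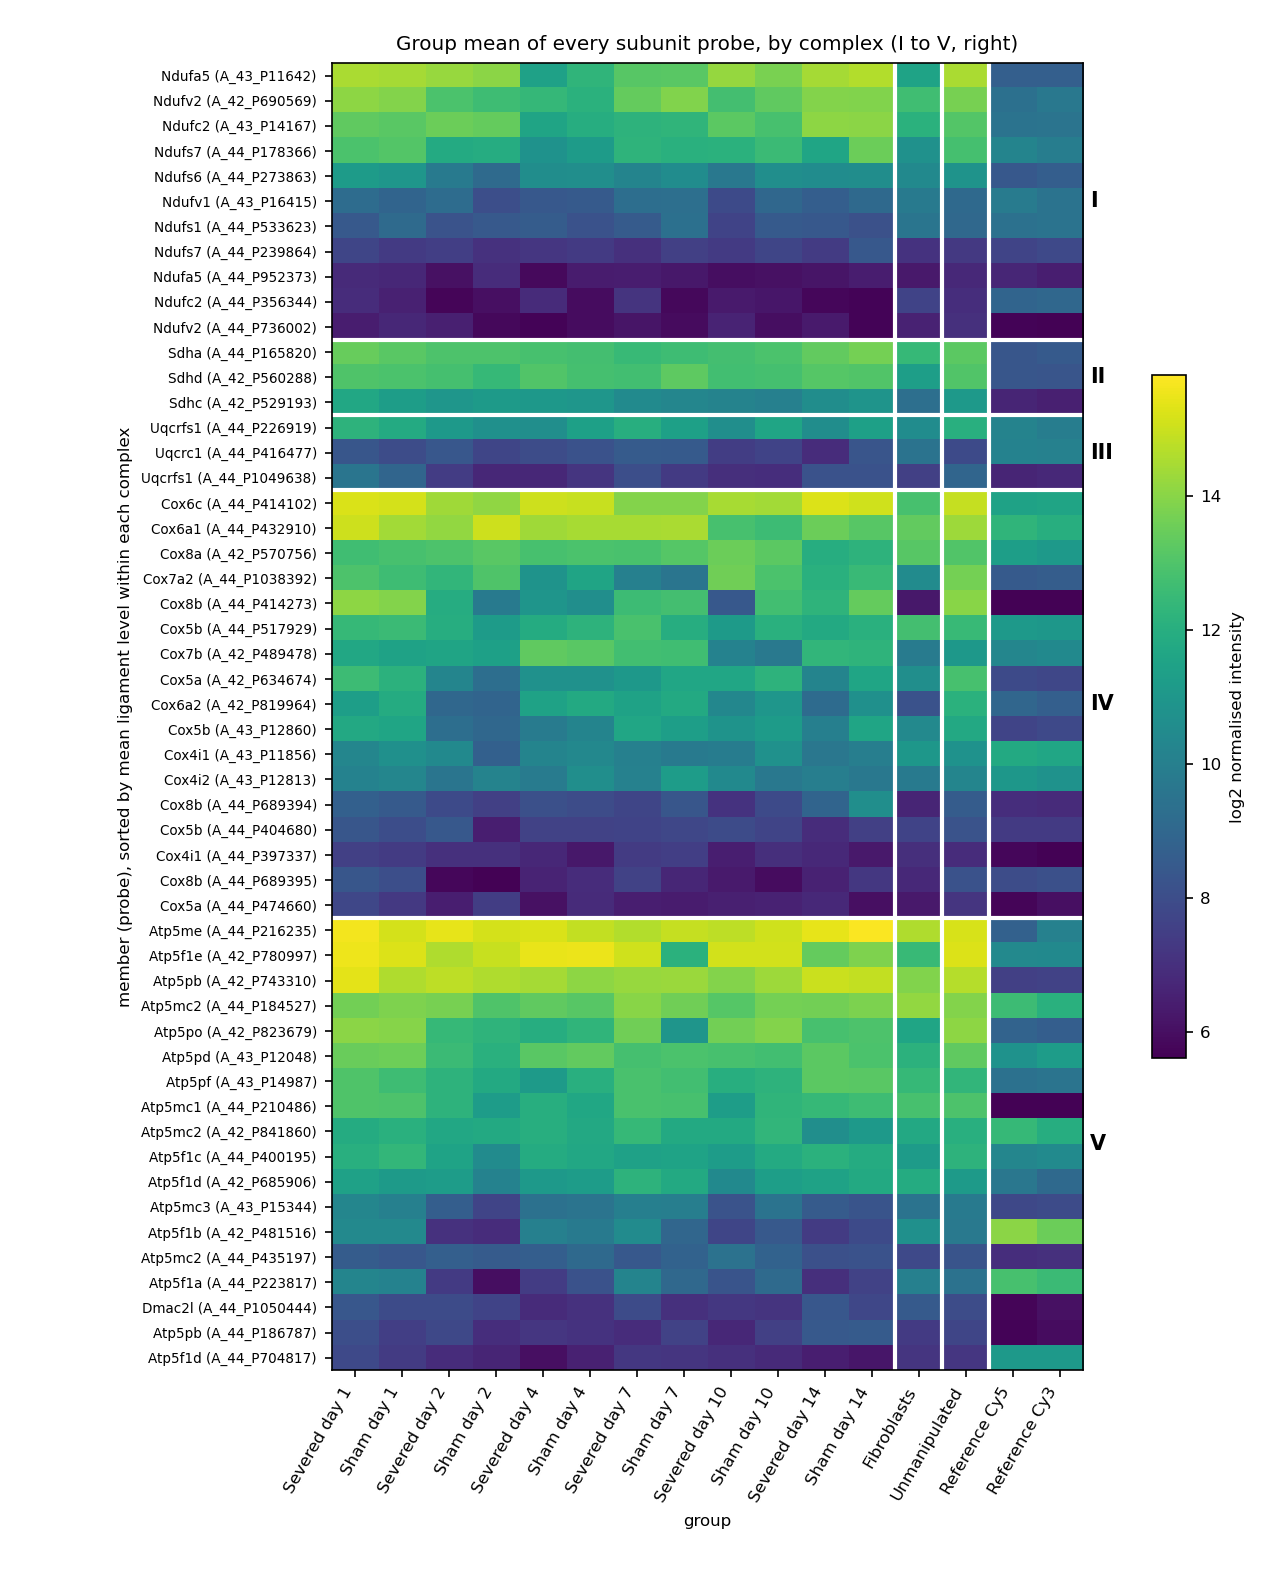
Heat map of the group mean of each of the 52 probes (rows, by complex I to V and by mean ligament level) in the 16 groups (columns), in log2 normalised intensity. Cox8b (A_44_P414273) averages 14.07 in severed ligament of day 1 and 8.43 in that of day 10, while Sdhd varies by 0.84 over the ligament groups.

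Across the ligament groups other than day 4, where columns stand apart, the group means of the 29 bright probes spanned a median of 1.72 log2 units. Sdhd was the steadiest of these, with a span of 0.84, and Cox7a2 the most variable, with 4.09. Cox8b (A_44_P414273), which was above controls in 49 of 57 columns and so not among the 29, spanned 5.65. Its highest mean was 14.07 in severed ligament of day 1 and its lowest 8.43 in severed ligament of day 10. Without replicate 1, sham ligament of day 14 averaged 15.19 and lay above both.

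The median over all 52 probes was taken in each column as a description of the family's level. It averaged 11.60 ± 0.42 in severed and 11.47 ± 0.51 in sham ligament on day 1 (SD, n = 5 each), and 10.68 ± 0.45 in severed and 10.38 ± 0.70 in sham ligament on day 2. On day 7 it was 11.15 in severed and 11.11 in sham ligament. On day 10 it was 10.46 ± 0.47 in severed and 11.20 ± 0.34 in sham ligament, and on day 14 10.52 ± 0.84 and 11.24 ± 1.21. Without replicate 1 of both groups, day 14 averaged 10.85 in severed and 11.77 in sham ligament, and its columns did not overlap (10.32 to 11.35 in severed, 11.45 to 12.09 in sham ligament). With all columns the groups overlapped on each of these days, and the day 10 columns ran from 9.74 to 10.93 in severed and from 10.83 to 11.64 in sham ligament. Most severed columns shared an array with a sham column, and within arrays the severed column was lower in 5 of 5 on day 10, with differences of -0.004 to -1.73, and in 4 of 5 on day 14. It was lower in 1 of 5 on day 1, in 1 of 5 on day 2 and in 3 of 5 on day 4. The day 4 count includes severed replicates 1 and 4, whose medians rest on only 16 and 6 of the 52 probes. Their arrays gave differences of -0.57 and -3.16, and the other arrays of day 4 gave 0.09, -0.10 and 1.27. These levels carry no dye correction, and the 2 columns of an array were in different dyes. Fibroblasts averaged 10.46 ± 1.29 (11.03 ± 0.09 without replicate 1), unmanipulated ligament 11.60 ± 0.45 and the Cy5 reference 8.88 ± 0.10.

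Skeletal muscle markers were set beside the median of the 52 probes, and they did not move with it on every day. The 21 probes of 17 muscle genes, among them the sarcomere genes Tnnc2 and Myh1 and the kinase Ckm, summed to between 6200 and 108000 intensity units in severed ligament of day 10 and between 138000 and 482000 in sham ligament of that day. On day 2 the sums were 127000 to 363000 in severed ligament and 7590 to 264000 in sham ligament. On day 7 they were lower in severed ligament, at 235000 to 263000 against 291000 to 382000 in sham ligament. The respiratory medians of that day averaged 11.15 and 11.11. Fibroblasts had muscle sums of 2860 to 30200, and unmanipulated ligament had 163000 to 587000. In severed ligament of day 10, 5 of the 21 probes were above the negative controls in every column, against 17 in sham ligament of day 10 and 19 in unmanipulated ligament. The part of muscle RNA in the differences of the respiratory genes was not tested.

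**Figure D2:**
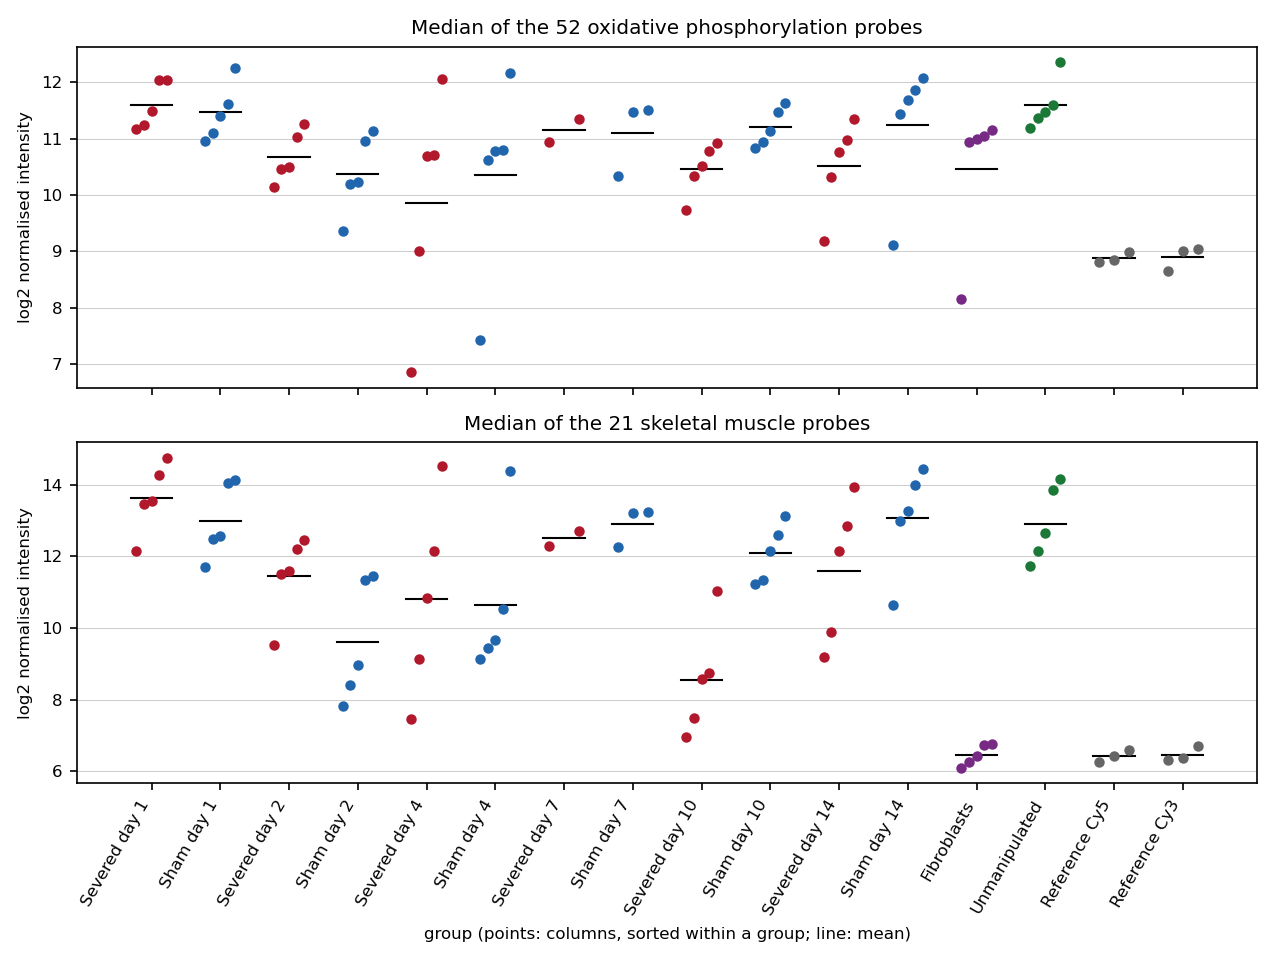
Column medians of the 52 respiratory probes (top) and of 21 skeletal muscle probes (bottom), in log2 normalised intensity, with 1 point per column and a line at the group mean. The low points on day 4, in sham ligament of day 14 (9.12) and among fibroblasts (8.16) are columns that stand apart, and severed ligament of day 10 is low in both panels.

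Whether severing changed the respiratory genes beyond the operation itself was asked by comparing severed with sham ligament. No probe of the 52 was called for the mean of the 6 days, where 0.00244% of all 40984 probes tested were called, nor on any single day, where the background was 0% on days 1 to 10 and 0.00976% on day 14. At an unadjusted p under 0.05, 1 of the 52 passed for the mean (3.46% of all probes), 4 on day 2 (2.94%), 4 on day 10 (1.83%) and none on days 4 and 7. The median difference of the 52 was 0.00 for the mean of the 6 days, with 26 above and 26 below 0. The daily medians were 0.20 (day 1), 0.29 (day 2), -0.09 (day 4), 0.03 (day 7), -0.24 (day 10) and -0.22 (day 14), beside a median SE per probe of 0.82 to 0.97. With each column scaled to its median instead of quantile normalisation, these medians were -1.34 (day 1), 2.28 (day 2), 2.18 (day 7) and 1.47 (day 14), beside -0.18, 0.25, 0.11 and 0.21 for all probes, so the direction on days 1 and 14 depends on the scaling.

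**Figure D3:**
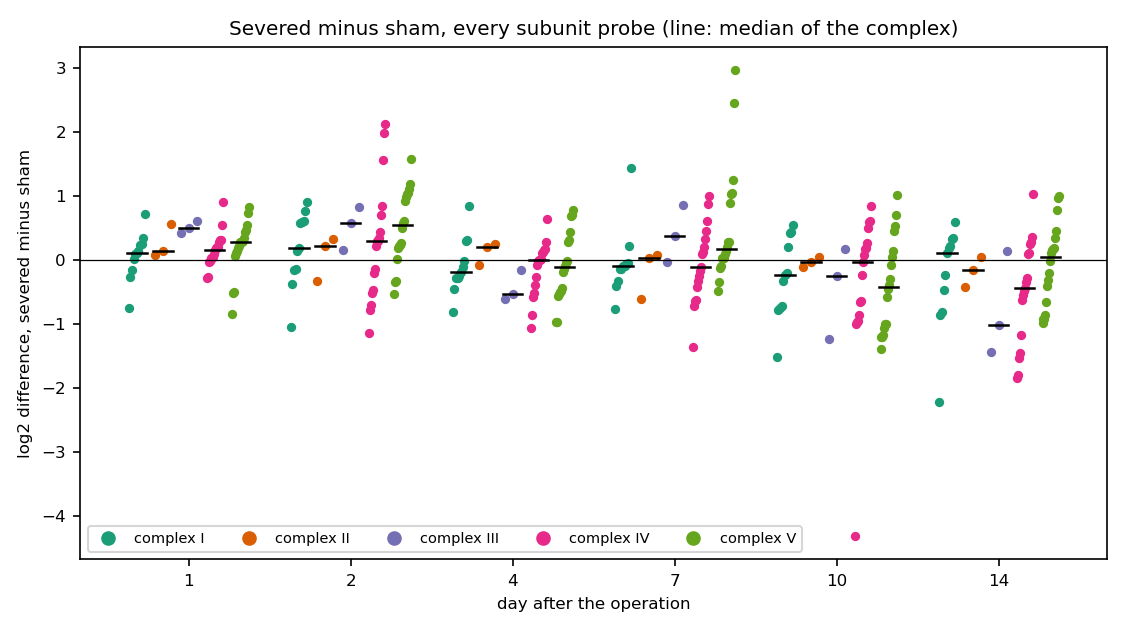
Log2 difference of each of the 52 probes between severed and sham ligament (vertical axis) by day (horizontal axis, 1 to 14), coloured by complex, with a line at each complex's median. The complex medians lie between -1.02 (complex III, day 14) and 0.57 (complex III, day 2), and the lowest point, on day 10, is Cox8b at -4.30.

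Atp5me, the small subunit e of ATP synthase, had the smallest p for the mean of the 6 days, with a difference of 0.47 ± 0.18 that was not called. Its sign followed the dye of the severed ligament: -0.84 and -0.97 for days 1 and 4 in Cy3, and 1.57, 1.01 and 1.00 for days 2, 10 and 14 in Cy5. Its dye term is set by the reference RNA, where it averaged 8.76 in Cy5 and 10.08 in Cy3. Without the dye term its differences were 0.47 and 0.34 for days 1 and 4, and -0.30 and -0.32 for days 10 and 14, so each of these signs turned with the correction. The dye's part in this gene cannot be told apart from the operation within a day.

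On day 1, Atp5pb, a subunit of the stalk that holds the catalytic head of ATP synthase, read 15.85, 15.20, 15.25, 15.09 and 15.60 in severed ligament and 14.63, 14.37, 14.93, 14.71 and 14.33 in sham ligament. Every severed column lay above every sham column. The fitted difference was 0.74 ± 0.35 and was not called, and it was -1.50 with median scaling.

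On day 2 the largest gap relative to its error was that of a Cox5b probe (A_44_P404680), for a matrix-facing subunit of complex IV. It read 8.59, 8.31, 8.21, 8.98 and 7.93 in severed ligament and 6.88, 6.43, 5.79, 5.64 and 7.46 in sham ligament. The groups did not overlap, and the difference of 1.97 ± 0.57 had an unadjusted p of 0.00104 and was not called after adjustment by limma. It was 2.00 without severed replicate 2, which stands apart. Without the dye term it was called, at 1.96 with an adjusted p of 0.00322, as was Cox4i1 at 1.71. The share of all probes called in that fit is not given here, so these calls cannot be set against a background. The Cox5b probe is dim and was above the negative controls in 36 of 57 ligament columns.

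On day 10, Cox8b (A_44_P414273) read 8.36, 5.98, 7.23, 8.92 and 11.65 in severed ligament and 12.36, 11.20, 13.73, 14.54 and 11.72 in sham ligament. The groups overlapped through 1 severed and 1 sham column, and within arrays the severed column was lower in 5 of 5. The difference was -4.30 ± 2.16 and was not called. Ndufv1, the subunit that binds NADH, differed by -1.51 ± 0.64 and Atp5f1d, the delta subunit, by -1.39 ± 0.53, both without a call. The 21 muscle probes all lay below 0 on that day, with a median of -3.35.

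On day 14 the second Cox8b probe (A_44_P689394) read 9.89, 9.06, 9.87, 6.86 and 8.82 in severed ligament and 11.60, 11.10, 10.01, 9.58 and 10.85 in sham ligament. The groups overlapped, and within arrays the severed column was lower in 5 of 5. The difference of -1.79 ± 0.71 was not called, and without the dye term it was -1.73 with an adjusted p of 0.0145. The share of all probes called in that fit is not given here. Cox6a2 and Ndufs7 differed by -1.84 ± 1.34 and -2.21 ± 1.39, both without a call. The Cox6a2 difference was -0.95 without severed replicate 1 and -3.04 without sham replicate 1.

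In the Cox8 and Cox6a pairs, which were measured in both forms, the muscle form varied more across groups than the widely expressed form. Cox6a2 averaged between 8.91 in sham ligament of day 2 and 12.13 in unmanipulated ligament. Over the same groups Cox8a stayed between 11.95 and 13.50, and its lowest mean, in severed ligament of day 14, included replicate 1 at 10.44. Cox6a1 was near saturation in several columns and read 6.28 in severed and 5.64 in sham ligament of day 10 replicate 4, which shared an array, while the other columns of that day lay between 13.79 and 14.90. Normalised levels of Cox6c, Atp5me and Atp5pb reached 15.95, 15.92 and 15.85, above the highest of Cox6a1 (15.5). The limit of saturation may hold for them too. Cox4i1, the common form of subunit 4, spanned 2.06 and Cox4i2, a form best known from lung, 1.69. Cox7a1 was not measured by a probe of that symbol, and Cox7a2 averaged 13.67 in unmanipulated ligament and 9.58 in sham ligament of day 7. The Cox7a2 span of 4.09 was wider than that of the muscle form Cox6a2 (3.23).

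**Figure D4:**
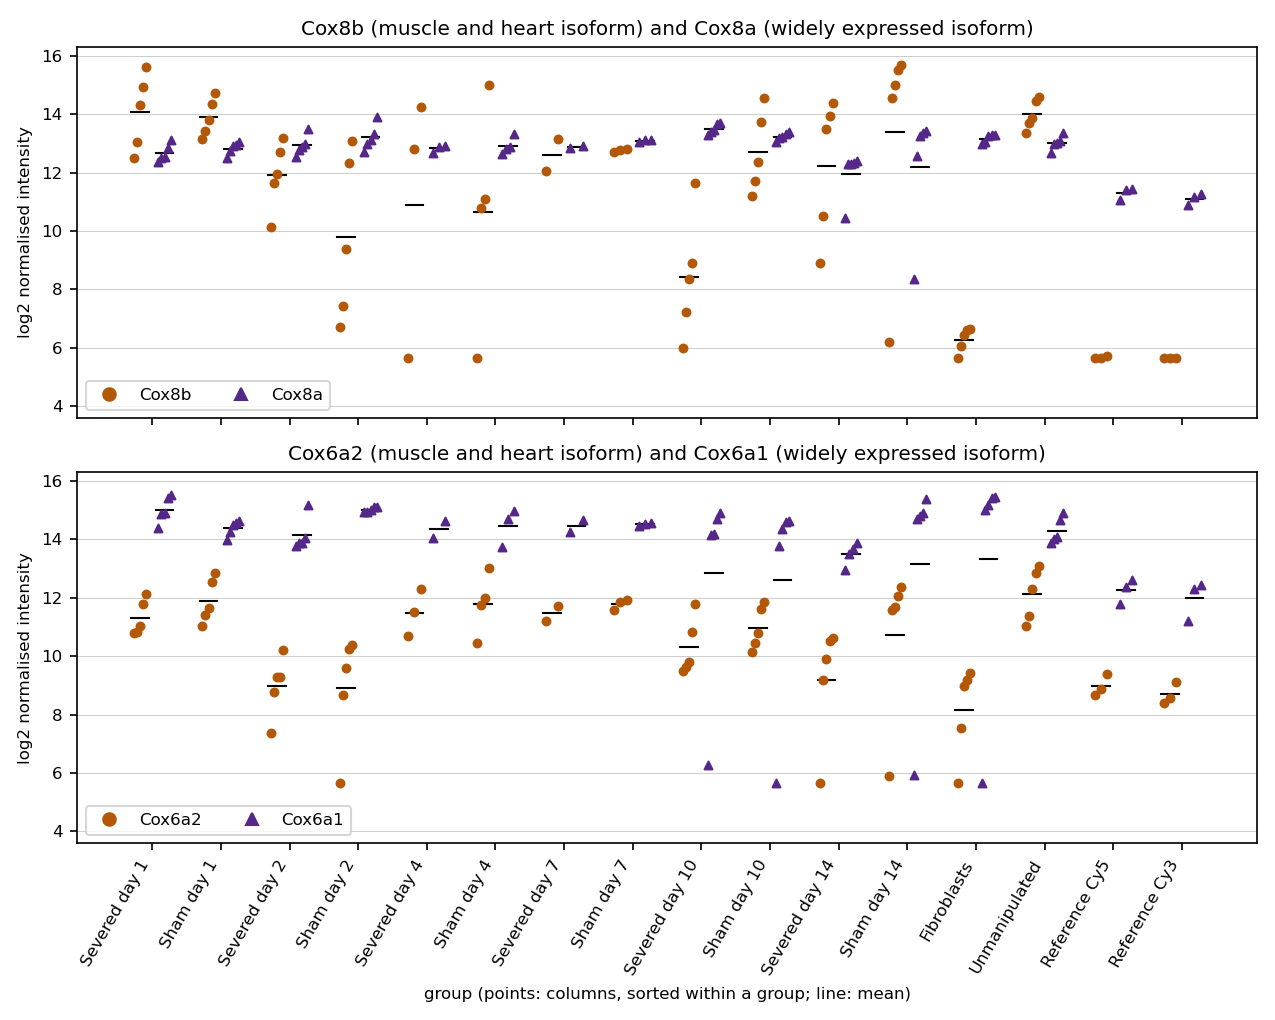
Levels of Cox8b and Cox8a (top) and of Cox6a2 and Cox6a1 (bottom) in each column, by group, in log2 normalised intensity, with a line at the group mean. Cox8b is low in severed ligament of day 10 (5.98 to 11.65), in fibroblasts and in reference RNA, where Cox8a stays at 10.89 or above.

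Later severed ligament (days 7, 10 and 14) and unmanipulated ligament were all in Cy5, so the dye does not enter their comparison. No member was called, against 0.576% of all probes (0.31% lower, 0.266% higher). The median difference of the 52 was -0.58, with 47 of 52 below 0, whereas all probes had a median of 0.05. Complex II had 3 of 3 and complex III 3 of 3 probes below 0, complex I 10 of 11, complex IV 16 of 17 and complex V 15 of 18. The lowest were Cox8b at -2.91 ± 1.15, Cox5a at -1.87 ± 1.02 and Cox6a2 at -1.82 ± 0.71. With median scaling 9 members were called, all lower, among them Cox8b, Cox6a2 and Atp5mc1, and 12 were called with the series' values as deposited, all lower. The shares of all probes called in these settings are not given here, so the counts cannot be set against 0.576%. Of the genes around the chain, 3 of 25 carrier and cytochrome c probes fell: Ckmt2, the muscle form of mitochondrial creatine kinase (-3.16, adjusted p 0.0481), Vdac1, an outer membrane channel (-2.03, 0.0221), and Ucp3, an uncoupling protein of muscle (-2.02, 0.0249). All 21 muscle probes lay below 0, with a median of -1.67, and Myh1 fell by 3.09. Of the other cell types, 2 of 8 neutrophil probes (Il1b -1.22, S100a8 -1.42) and 1 of 12 macrophage probes (Cd14 -1.61) fell, and their part was not tested.

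Early sham ligament (days 1 and 4) was in Cy5 as well. Compared with unmanipulated ligament, which is the same control as above, no member was called (0% of all probes), 2 of the 52 had an unadjusted p under 0.05 (3.59% of all), the median difference was -0.28 and 39 of 52 lay below 0. Cox8b differed by -1.74 ± 1.17 and Cox5a by -1.39 ± 1.02 (-0.93 without sham day 4 replicate 1). The muscle probes had a median of -0.75, with 20 of 21 below 0.

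Between days within 1 operation and 1 dye, a few members changed. In severed ligament of day 4 against day 1 the median difference was -0.70, with 45 of 52 below 0, and 1 member fell (0.405% of all probes were called, 0.322% lower and 0.083% higher). This was Atp5pb, which read 14.05, 14.48 and 14.70 in the 3 measured columns of day 4 and 15.85, 15.20, 15.25, 15.09 and 15.60 on day 1. No day 4 column reached the day 1 range. The difference was -0.99 ± 0.25 with an adjusted p of 0.0426 in limma, and it was not called with the poorly correlating columns left out (-0.98, adjusted p 0.0556). Its call was also lost without severed day 1 replicate 1, 3 or 5 or day 4 replicate 2 or 3, and 5 members were called without day 4 replicate 5. With median scaling the difference was -0.06. The muscle probes had a median of -1.02 here, with 20 of 21 below 0.

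In severed ligament of day 14 against day 10, 2 members rose and 1 fell, where 1.6% of all probes were called (1.2% higher, 0.4% lower). Atp5pb read 14.99, 15.11, 15.21, 14.74 and 14.83 on day 14 and 14.12, 13.89, 13.84, 13.83 and 13.92 on day 10, without overlap. It rose by 1.06 ± 0.21 (fold 2.08, adjusted p 0.00273). The dim Cox8b probe A_44_P689394 read 9.89, 9.06, 9.87, 6.86 and 8.82 on day 14 and 6.20, 7.57, 7.59, 7.09 and 7.02 on day 10, and rose by 1.81 ± 0.43 (adjusted p 0.0159). Its call was lost without day 14 replicate 1, which stands apart (1.56, adjusted p 0.0666), without day 14 replicate 3 (adjusted p 0.0681) and without day 10 replicate 1 (adjusted p 0.0643). Its groups overlapped through 1 day 14 column, and on day 10 it was above the negative controls in 1 of 5 columns.

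The bright Cox8b probe (A_44_P414273) read 8.89, 13.48, 14.37, 10.52 and 13.92 in severed ligament of day 14, against 8.36, 5.98, 7.23, 8.92 and 11.65 on day 10. Its difference of 3.81 ± 1.32 was not called (adjusted p 0.138), and it was called, at 4.71, when more weakly correlating stretches were also set to missing. The share of all probes called in that setting is not given here. Cox8a read 10.44, 12.29, 12.28, 12.34 and 12.41 on day 14 and 13.66, 13.29, 13.37, 13.71 and 13.47 on day 10, so every day 14 column was lower. It fell by 1.55 ± 0.43 (adjusted p 0.0465). Without day 14 replicate 1, which stands apart, the difference was -1.17 and not called (adjusted p 0.195), and of the 10 columns only day 14 replicate 5 could be left out with the call kept. Without severed day 10 replicate 1 or day 14 replicate 1 or 3, 1 member was called in place of 3.

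All 21 muscle probes lay above 0 in severed ligament of day 14 against day 10, with a median of 2.55, and 6 were called, Trdn and Tnnc2 among them at 5.72 and 5.24. Of the carriers, Ckmt2 rose by 5.24, Slc25a4, the ADP/ATP carrier of muscle, by 2.14, and 3 probes of cytochrome c (Cycs) by 1.32 to 1.75. In glycolysis 3 of 26 probes rose, the muscle enzymes Pgam2, Eno3 and Pfkm, and the citric acid cycle enzyme Fh rose by 1.86. Of 44 further subunit probes, which carried other names in the file and were assigned through RefSeq, 5 rose as well: Ndufv3 by 2.06, Ndufa8 by 1.74, Ndufa2 by 1.64, Ndufb3 by 1.36 and Ndufb9 by 0.99.

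In sham ligament of day 14 against day 10, 1 member rose, where 3.64% of all probes were called (1.5% higher, 2.14% lower). The Cox8b probe A_44_P689394 read 11.60, 11.10, 10.01, 9.58 and 10.85 on day 14 and 7.53, 7.51, 8.24, 8.73 and 7.42 on day 10, with no overlap. The rise was 2.74 ± 0.43 (fold 6.69, adjusted p 4.06e-05), and 2.50 without day 14 replicate 1. The rise was 1.15 and not called with median scaling. The bright Cox8b probe differed by 0.68 ± 1.32, and sham day 14 replicate 1 set that value: without it the means of the bright probe were 15.19 on day 14 and 12.71 on day 10, a difference of 2.48 (untested). The muscle probes had a median difference of -0.09, with Mb and Myh4 called higher, and that value includes day 14 replicate 1. The column median of the muscle probes was 10.63 in that replicate and 12.99 to 14.44 in the other day 14 columns. On day 10 it was 11.23 to 13.14. The part of muscle RNA in the Cox8b rise was not tested. Among the further subunit probes 4 rose, with Ndufb2 first at 1.72, and 2 fell, Ndufa10l1 at -2.74 and Ndufs8 at -2.45.

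Cultured fibroblasts were compared with unmanipulated ligament, both in Cy5. The fibroblast columns are successive passages, which share cells, so these SEs and p-values need not measure a spread between independent cultures. In the cultures 9 members fell and none rose, where 9.62% of all probes were called with 4.74% lower and 4.88% higher. The median difference of the 52 was -0.57, with 38 below 0, and that of all probes 0.02. The called probes were 1 of 11 in complex I, 2 of 3 in complex II, none of 3 in complex III, 4 of 17 in complex IV and 2 of 18 in complex V.

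Cox6c read 12.94, 12.85, 12.73, 12.88 and 12.81 in fibroblasts and 14.95, 15.22, 15.08, 14.54 and 14.80 in unmanipulated ligament. Every fibroblast column was lower, and Cox6c fell by 2.08 ± 0.27 (fold 0.237, adjusted p 2.19e-08). Sdhd read 11.67, 11.11, 11.35, 10.98 and 11.45 in fibroblasts, against 12.91, 12.84, 13.56, 12.83 and 12.95 in unmanipulated ligament. It fell by 1.71 ± 0.27 (fold 0.306, adjusted p 3.3e-06). The other complex II call was Sdha, which fell by 0.82 ± 0.26, and in complex V the stalk subunits Atp5pd and Atp5pb fell by 1.15 ± 0.27 and 0.80 ± 0.21.

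Among the 9 called probes, those of the muscle isoforms Cox8b (A_44_P414273) and Cox6a2 fell most. Cox8b (A_44_P414273) read 5.64, 6.64, 6.61, 6.43 and 6.06 in fibroblasts, of which 2 were above the negative controls, and 14.60, 13.87, 14.45, 13.69 and 13.37 in unmanipulated ligament. The difference was -7.72 ± 1.32 (adjusted p 1.8e-05). The dim second Cox8b probe (A_44_P689394), also called, fell by 1.91 ± 0.43 (adjusted p 0.00139 in limma), less than Cox6c. Cox6a2 read 5.64, 7.54, 8.98, 9.41 and 9.18 in fibroblasts and 12.85, 12.32, 13.09, 11.03 and 11.38 in unmanipulated ligament, a fall of 3.98 ± 0.82. Cox8a read 13.05, 13.28, 12.98, 13.27 and 13.25 in fibroblasts and 12.98, 13.03, 12.67, 13.08 and 13.34 in unmanipulated ligament, with a difference of 0.15 ± 0.43 and an adjusted p of 0.904. All 21 muscle probes fell, with a median of -6.50, and 6 of them were above the negative controls in no fibroblast column. Blood and immune markers were also lower in the cultures, with 5 of 7 red cell, 5 of 8 neutrophil and 3 of 12 macrophage probes called. So were 3 of 9 adipocyte probes (Cfd -7.06, Fabp4 -4.59, Adipoq -3.58) and 2 of 10 endothelial probes (Vwf -3.55, Kdr -3.17), and the part of these cell types in the subunit differences was not tested.

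Fibroblast replicate 1 stood apart: 17 of the 52 probes lay over 2 log2 units from the fibroblast median there, 15 of them below it. Ndufa5 read 6.29 in that column and 12.90, 12.66, 12.79 and 12.92 in the others, against 14.83, 14.51, 14.50, 14.29 and 14.33 in unmanipulated ligament. Its call (-2.98 ± 0.96) was lost without that column (-1.67, adjusted p 0.295), as was that of Sdha (-0.79, adjusted p 0.0636). Without the column 8 members were called lower, 7 of them among the 9 above, and the second Atp5pb probe was added. With weakly correlating stretches also missing, 14 fell and 1 rose, Uqcrc1 at 1.54, and all 9 first calls were among them. The shares of all probes called in these settings are not given here.

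**Figure D5:**
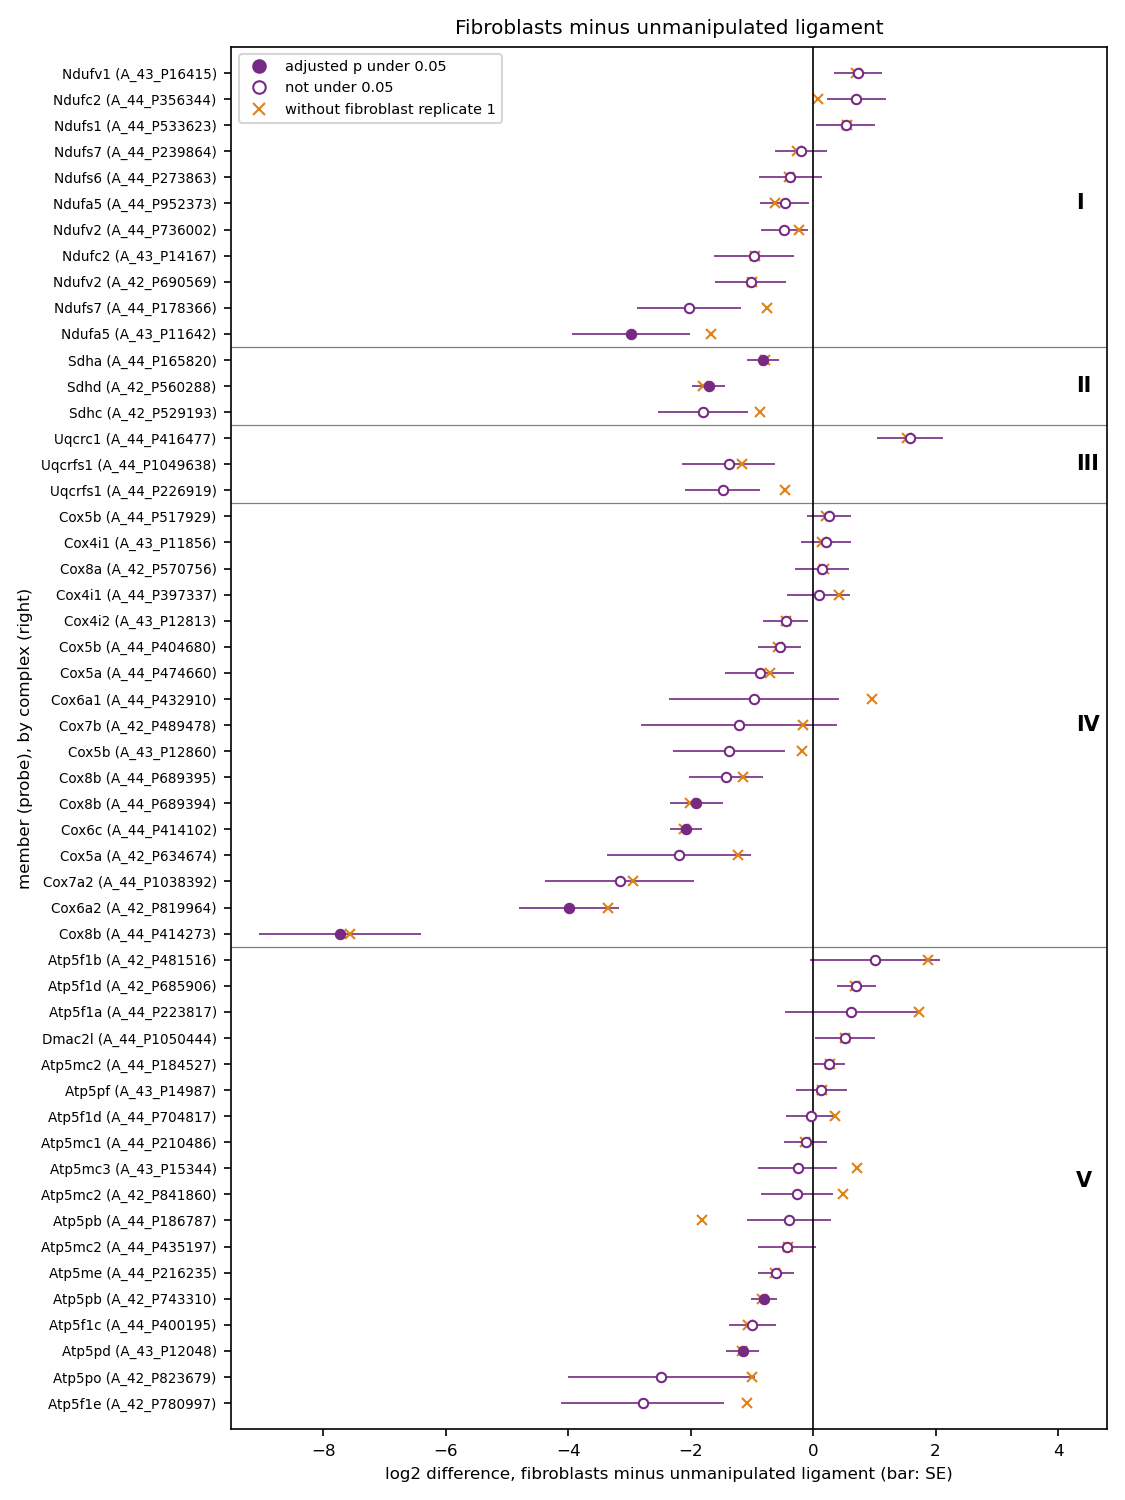
Log2 difference of each probe between fibroblasts and unmanipulated ligament (horizontal axis) with its SE, by complex I to V from the top, with filled points for an adjusted p under 0.05 and crosses for the fit without fibroblast replicate 1. Cox8b (A_44_P414273) lies lowest at -7.72, and Ndufa5 moves from -2.98 to -1.67 without that column.

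Around the chain, 5 of the 44 further subunit probes fell in fibroblasts: Ndufb3 by 1.62, Ndufa1 by 1.57, Ndufa6 by 1.48, Uqcrb by 1.33 and Ndufb9 by 1.18. Among 25 carrier and cytochrome c probes 7 fell, from Ckmt2 at -8.12 to Vdac3 at -0.95. In glycolysis 4 of 26 probes rose, namely 2 for Eno1 (2.44 and 2.42), Slc2a1, the common glucose transporter, at 2.18 and Pgk1 at 1.80, whereas the muscle enzymes Pgam2, Eno3 and Pfkm fell. In the citric acid cycle Mdh2 and Idh3b rose by 2.03 and 0.98 among 16 probes, and of 11 probes for mitochondrial biogenesis Tfam, a factor that packages mitochondrial DNA, fell by 1.11.

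Unmanipulated ligament was set against the universal reference RNA, a pool of other rat RNA, as a description of tissue level. Here 33 members were higher and 5 lower, where 13.4% of all probes were called higher and 16.8% lower (30.2% in all), and the median difference was 1.92, against 0.15 for all probes. Atp5pb averaged 14.67 ± 0.33 in unmanipulated ligament (n = 5) and 7.53 ± 0.23 in the Cy5 reference (n = 3), a difference of 7.14 ± 0.25. Atp5mc1, a subunit of the membrane ring of ATP synthase, read 12.39 to 13.86 in unmanipulated ligament and was above the negative controls in none of 3 reference columns, so it was at least 154.9-fold higher. Atp5me, Sdha, Sdhd and Cox6c were higher by 6.41, 4.93, 4.71 and 3.44. Lower in unmanipulated ligament were the catalytic subunits Atp5f1a (-3.41 ± 1.24) and Atp5f1b (-4.32 ± 1.23), Uqcrc1 (-2.23 ± 0.62), 1 of 2 Ndufc2 probes (-1.97 ± 0.56) and 1 of 2 Atp5f1d probes (-3.92 ± 0.48), whose other probe was higher by 1.55 ± 0.37. Unmanipulated ligament spread widely in Atp5f1a and Atp5f1b, with SDs of 2.02 and 2.33.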

How the data were processed

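Background-subtracted spot intensity (foreground minus background median, per the file headers) was deposited by the authors for 72 columns, with no normalisation stated. The authors also deposited a value table on a log2 scale, used as an alternative. In each column at least 97.1% of its spots lay within 0.05 of log2 intensity minus a constant, and all 67 columns with a named sample correlated best with that sample (the 5 fibroblast columns were not tested). Image analysis and scanning settings are not given in the sources used here.

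From 41372 gene spots (2917 control spots left out), stretches of 1000 spots with a Spearman correlation under 0.3 to the median of the other columns of their kind were set to missing. Intensities were floored at 50, quantile normalised, taken as log2 and averaged per probe. Probes above 100 in at least 3 samples were kept (40984). limma 3.58.1 in R 4.3.3 fitted 1 mean per group and a dye term, which only the reference RNA determines, with Benjamini-Hochberg adjustment over all probes. The fit was tested on simulated data. Of the probes, 45.2% were named through RefSeq (GRCr8). The number of arrays limits the precision, and p-values measure the spread between columns.

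Picked to be named were the 2 brightest probes of each complex, the isoform pairs and up to 3 probes of each pathway list. Per comparison, up to 6 called members of smallest p were picked, or with no call the 3 of largest difference each way. Not all of the uncalled members picked are described in the Results. Severed minus sham on day 2, Cox8b (A_44_P414273) had the largest difference, at 2.12 ± 2.16, and is left out there. The Cox8b probe A_44_P414273, other called list probes and examples of markers were named beyond this after their values were seen. The members and lists were chosen with earlier results of these data known. Levels without the columns that stand apart and differences within arrays were added after seeing the data. Alternatives were the scaling, floor, filter, missing stretches, dye term, array and replicate blocks, the value table, 1 probe per symbol and leaving out each replicate.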

Additional observations from a re-analysis of the deposited data

Results flagged for a closer look

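In 9 of the 99 groups examined over 9 quantities, 1 column lay further from the rest than a Dixon test at the 95% level allows, and chance flags about 1 group in 20. Most were replicate 1 of day 14 or of the fibroblasts. The median of the 52 probes was 9.118 in sham day 14 replicate 1, with the others at 11.45 to 12.09, and 8.155 in fibroblast replicate 1, with the others at 10.94 to 11.15. In severed day 14 replicate 1, Cox6a2 read 5.644 (others 9.20 to 10.61) and Cox8a 10.44 (12.28 to 12.41). In sham day 14 replicate 1, Cox8b (A_44_P414273) read 6.204 (others 14.57 to 15.68), Cox6a2 5.897 (11.59 to 12.36) and Cox8a 8.366 (12.58 to 13.41). Of 42 stretches of spots, 41 in the severed and 40 in the sham column had a correlation under 0.5 to the other columns. Away from them, Cox8b (A_44_P689394) was high in sham day 2 replicate 5, at 8.423 (others 7.167 to 7.446), and Sdhd in unmanipulated replicate 3, at 13.56 (12.83 to 12.95).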

How the results depend on the processing

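Severed minus sham counts of called members were 0 for the mean of the 6 days and on days 1, 4, 7 and 10 under every alternative run. On day 2 there were 2 without the dye term and 2 with the poorly correlating columns also left out (both higher), and 2 with the series' value table, where they were other genes, Cox5a and Atp5f1d, and lower. On day 14 there were 1, 1 and 2. Severed days 7, 10 and 14 against unmanipulated gave 9 with median scaling and 12 with the value table. For severed day 4 against day 1 the single call became 0 with median scaling, a floor of 20, sham day 7 as 1 sample, the array as a block or the poorly correlating columns left out, 2 with a floor of 100 or the value table and 3 with no stretch missing. Severed day 14 against day 10 gave 6 with median scaling, 0 with no stretch missing, 7 with stretches under 0.5 also missing and 10 with the value table. Sham day 14 against day 10 gave 3 with a floor of 100, 2 with stretches under 0.5 missing or poorly correlating columns left out (with or without the dye term), and 0 with the value table or 1 probe per symbol. Fibroblasts against unmanipulated gave 5 with no stretch missing and 15 with stretches under 0.5 missing. Under these alternatives the number of all probes called moved as well, in 67 results, and stayed the same in 143. The counts of members are given without that share and do not show a change particular to them. Leaving out each replicate gave 0 to 5 for severed day 4 against day 1, 1 to 4 for severed day 14 against day 10, 1 for sham day 14 against day 10, 7 to 9 for fibroblasts, 30 to 38 for unmanipulated against reference and 0 elsewhere.

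Single members changed sign as follows. With median scaling, severed minus sham was -0.90 for Atp5f1d, -1.50 for Atp5pb and -1.12 for Cox6a1 on day 1, 1.32 for Cox4i2 and 1.69 for Cox6a1 on day 2, 0.78 for Cox4i2, 1.77 for Cox5a and 0.80 for Ndufs1 on day 7, 0.31 for Cox6a2, 0.76 for Cox8b (A_44_P689394) and 0.61 for Ndufs7 on day 14, and 0.29 for Cox8b (A_44_P414273) and 0.40 for Ndufs7 for the mean. Severed days 7, 10 and 14 minus unmanipulated was -0.0025 for Atp5mc2 and -0.66 for Atp5pf. Atp5me was -1.06 on day 2 with the labels' dyes. Without the dye term it was 0.47, 0.34, -0.30 and -0.32 on days 1, 4, 10 and 14, and with the poorly correlating columns also left out 0.47, 0.15, -0.30 and -0.32, and -0.0031 for the mean. In that setting Atp5pf was 0.40 and Ndufc2 -0.28 on day 4, with the dye term kept 0.28 and -0.39, and with stretches under 0.5 missing 0.12 and -0.95. With no stretch missing, Atp5f1b was -0.0012 and Atp5mc2 -0.22 on day 4, Atp5me -0.00029 for the mean and Atp5pf -0.14 against unmanipulated. With the value table, severed minus sham was -0.52 for Atp5pb and -0.15 for Cox6a1 on day 1, 0.79 for Cox4i2, 1.78 for Cox5a, -0.25 for Ndufc2 and 0.81 for Ndufs1 on day 7, and -0.56 for Cox5a on day 14. Severed days 7, 10 and 14 minus unmanipulated was -0.68 for Atp5mc2, -0.57 for Atp5pf and -1.72 for Cox7b, sham days 1 and 4 minus unmanipulated was -0.95 for Atp5f1b and -0.72 for Cox7b, and Cox8b (A_44_P689394) was -0.38 for severed day 14 against day 10.

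Leaving out each replicate gave ranges that crossed 0 for some members. On day 4 Atp5pf ran from -1.64 to 0.28 (without severed replicates 2 and 4) and Ndufc2 from -0.39 to 1.45 (4 and 2). On day 7, Atp5f1e ran from -0.29 to 4.61 and Atp5po from -0.19 to 3.78 (without sham replicates 3 and 1). Severed days 7, 10 and 14 minus unmanipulated ran from -0.35 to 1.25 for Cox7b (without unmanipulated replicates 1 and 3) and from -0.042 to 0.60 for Atp5mc2 (without unmanipulated replicate 3 and severed day 14 replicate 2). Sham days 1 and 4 minus unmanipulated reached -0.63 for Atp5f1b without unmanipulated replicate 5. The causes of these changes were not tested. Leaving out the poorly correlating columns was chosen after seeing the data.

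Severed and sham columns of the same replicate number deviated together in 24 of 27 pairs (r over 0.1), with a range of -0.171 to 0.904. The pairs that did not, day 4 replicate 4 and day 7 replicates 1 and 3, lay on separate arrays. Pairs that shared an array ran from 0.247 to 0.904, so columns of a shared array did deviate together. Because not every pair passed the rule set for pairing, the planned fit has no block, and its severed minus sham SEs leave this pairing out. As a block, the array had a correlation of 0.356. With the replicate number as a random block the severed minus sham counts stayed at 0 and severed day 4 against day 1 gave 0 (Atp5pb -0.99, adjusted p 0.0512). Low signal over background limits the dim probes, 7 of which were above the negative controls in under 50% of ligament columns.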
